A study of Mus musculus with 36 samples.

Results

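The clustered protocadherin genes of the mouse were followed across the H3K9me3 tables of the series. They were taken as the rows on chromosome 18 whose gene symbol places them in the Pcdha, Pcdhb, Pcdhga, Pcdhgb or C-type (Pcdhac and Pcdhgc) subclusters. Of the 58 such genes in the mouse annotation, 56 had at least 1 H3K9me3 row, among 22325 gene symbols in all tables. These 56 genes accounted for 481 rows over the 6 tables, which held 292 distinct bins from 171 distinct peaks. Rows were assigned by symbol, and 10 of them overlapped an exon of another member than their symbol. Pcdha4 and Pcdha7 had no row under their own symbol. Their exons were nonetheless under peaks, whose bins the tables assign to the read-through gene models Gm37013 and Gm38667.

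H3K9me3, trimethylation of lysine 9 of histone H3, was mapped by ChIP-seq (sequencing of chromatin fragments pulled down with an antibody) in mouse liver. Dams received a Western-style diet that produced maternal obesity (MO), or a control chow diet, for 4 weeks before mating and through gestation and lactation. Their male and female offspring were studied at 3 weeks, before weaning, or at 8 weeks, after 5 weeks on chow. The 8 groups of 4 ChIP libraries were CF and CM (female and male offspring of control dams) and MF and MM (female and male offspring of MO dams) at each age, and 4 input libraries brought the series to 36 samples. All offspring were floxed littermate controls (Reg3g-fl/+ or Reg3g-fl/fl) on a C57BL/6J background and thus shared a floxed Reg3g allele.

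Clustered protocadherins are adhesion proteins best known in neurons, where each cell uses a few of them to tell its own branches from those of its neighbours. In the alpha and gamma subclusters, a large variable exon with its own promoter encodes the extracellular, transmembrane and proximal cytoplasmic part and is spliced to constant exons shared by the subcluster. The beta genes have a single exon and no constant part, while the C-type variable exons are the last of the alpha and gamma arrays and differ from the others in how neurons choose them. H3K9me3 is a mark of repressed chromatin, and the methyltransferase SETDB1 is known to deposit it at these genes in neurons.

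Each table paired 2 groups and gave, for every bin, nominally 500 bp or shorter, the average log2 CPM (reads in the bin relative to library size) over its 8 libraries, which is called the level here. Tables listed between 102145 and 159357 bins, with 1 bin retained per peak, and peak sets were built separately for females and males. Values per library were not in the tables used here, so no difference could be set against the spread between replicates and no test was run. The paper states an approximate number of reads per library, but the depth of each library is not given. A level also depends on which bin of a peak was retained, and how that bin was chosen is not given in the sources used here. The positions of bins along the exons and the matched comparisons rest on this choice. Differences between conditions were therefore taken only between identical bins.

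The mark lay on the protocadherin exons. The coding part of the variable or single exons was between 2319 and 2562 bp long, with a median of 2400 bp. These values include Pcdhgb8, a transcribed pseudogene with no coding exon, by its longest exon of 2499 bp. In females, peaks covered 87.3% of these exon bases, compared with 5.87% of the remaining 752 kb of the 892 kb locus. In males the corresponding values were 86.2% and 5.91%. Peaks occupied 8.92% of the autosomal sequence in females and 9.38% in males, so the sequence between the exons was covered less than the autosomes as a whole. No exon of the 58 was free of a peak in either sex, while 64.3% of coding exons of at least 2 kb in other genes touched a peak in females and 63.9% in males. At least 50% of the exon was covered for 52 of 58 members in females (89.7%) and 51 of 58 in males (87.9%).

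**Figure D1:**
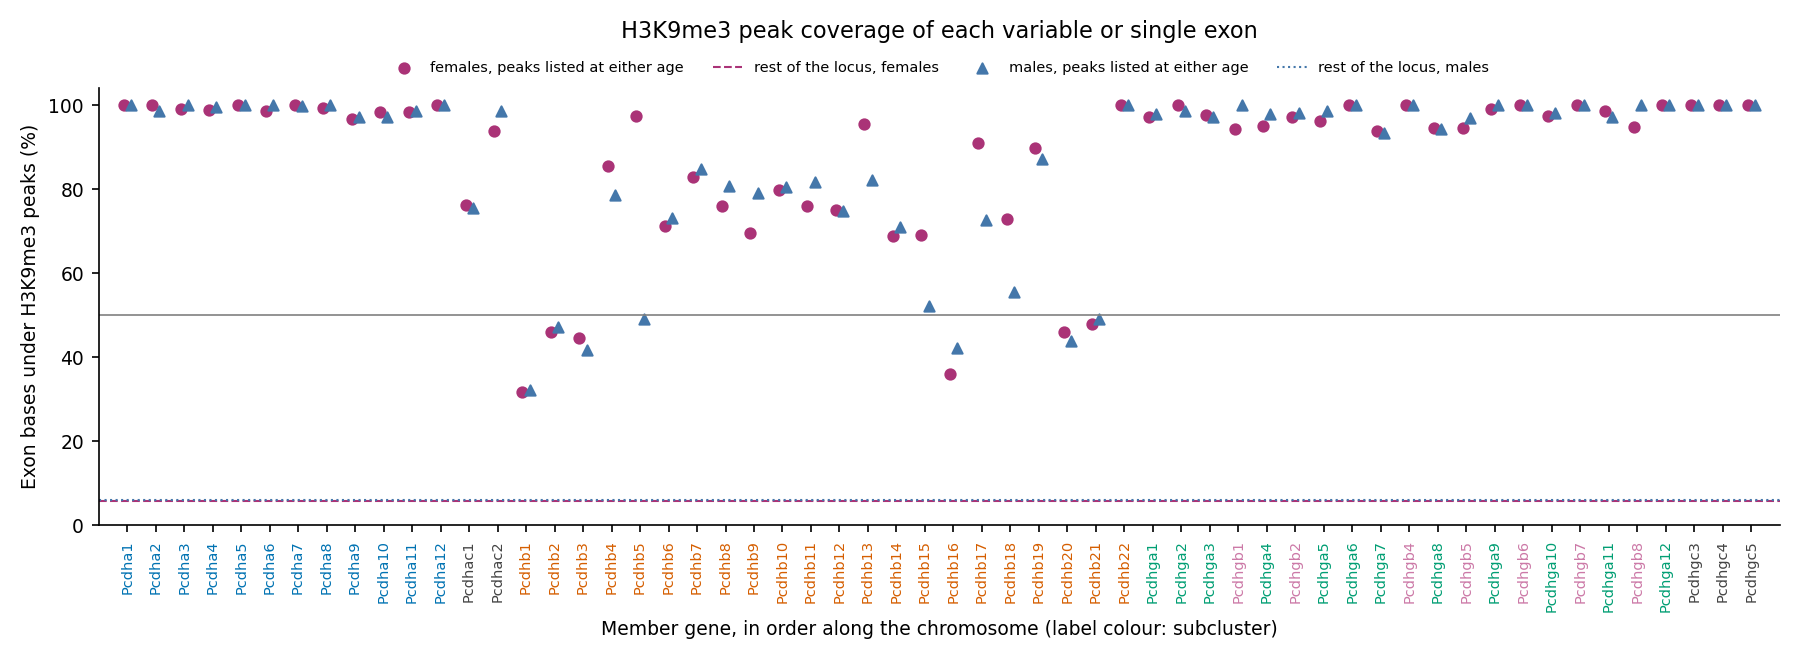
Percent of each variable or single exon under an H3K9me3 peak, with genes in chromosomal order on the horizontal axis; circles are females, triangles are males, the grey line marks 50%, and the dashed and dotted lines give the rest of the locus (5.87% in females and 5.91% in males). Alpha and gamma exons lie near the top, while the Pcdhb exons spread from 31.7% to 100% in females.

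Coverage was near complete in the alpha and gamma arrays. All 12 Pcdha exons were at least 96.6% covered in females and at least 97.1% covered in males. The 12 Pcdhga exons ranged upwards from 93.8% in females and 93.4% in males, and the 7 Pcdhgb exons from 94.2% and 97.01%. Among the C-type exons, Pcdhgc3, Pcdhgc4 and Pcdhgc5, which close the gamma array, were each covered to 100% in both sexes. Pcdhac2 was covered to 93.8% in females and 98.6% in males. Pcdhac1 was the least covered C-type exon, with 76.3% in females and 75.6% in males.

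Peaks over the alpha exons matched the exon closely. The median peak there was 2418 bp long in females and 2454 bp in males, and it began 42 bp upstream of the coding start in females and 31 bp upstream in males. Peaks over the Pcdhga and Pcdhgb exons began further upstream, at medians of 245 bp and 292 bp in females and 285 bp and 304 bp in males. C-type peaks began at medians of 305 bp and 376 bp upstream. A single peak of 7650 bp in females, and of 7625 bp in males, joined the neighbouring exons of Pcdhgb6 and Pcdhga10.

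The single-exon Pcdhb genes differed in where the peak lay. Their median coverage was 74.0% in females and 72.9% in males, and 16 of 22 exons in females and 15 of 22 in males reached 50%. The median peak began 442 bp inside the exon in females and 497 bp inside it in males, and ended 97 bp and 107 bp before the exon end. The covered part was thus mostly the downstream part of the coding sequence. Pcdhb20 is an example, with peaks that began 1240 bp into the exon in males and covered 43.8% of it there, compared with 46.1% in females. The peaks of Pcdhb1 and Pcdhb22, at either end of the array, covered the coding start in both sexes. That of Pcdhb1 began 45 bp upstream of the exon in females and 109 bp upstream in males and covered 31.7% and 32.2% of it. Pcdhb22 was covered to 100% in both sexes, under a peak of 3812 bp in females and 5204 bp in males. Pcdhb5 differed most between the peak sets, at 97.4% in females and 49.1% in males.

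**Figure D2:**
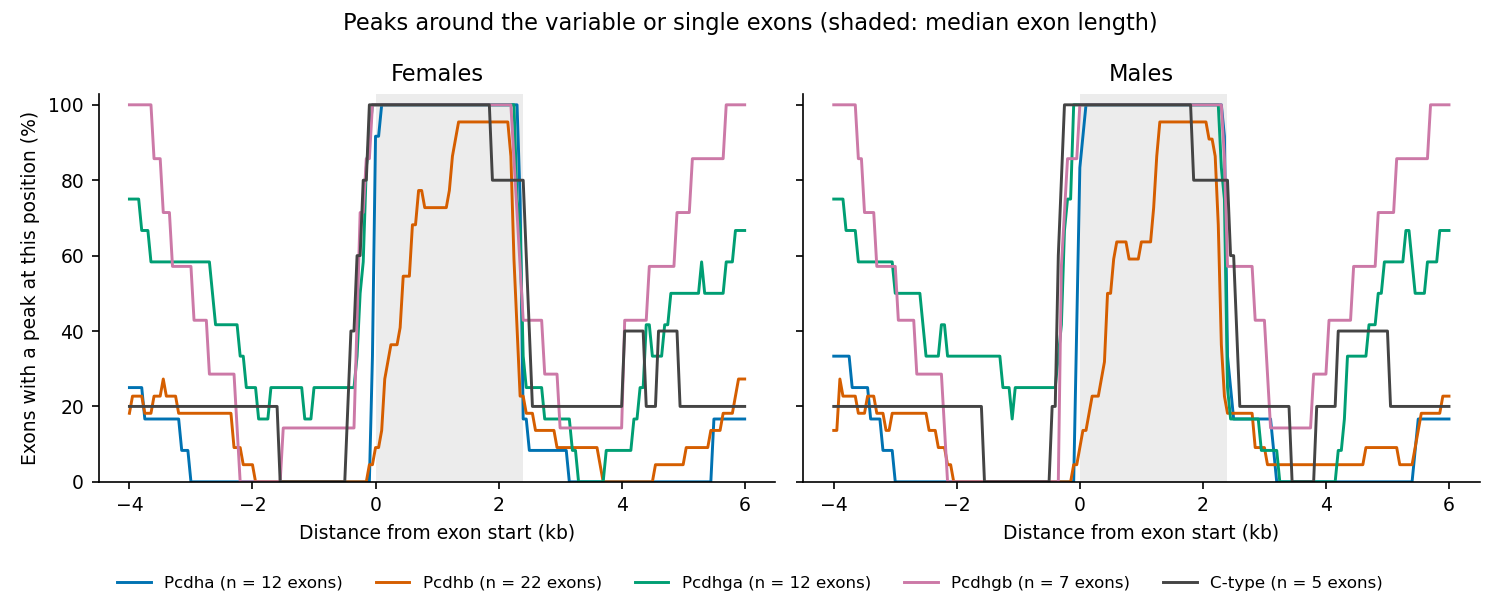
Percent of exons under a peak at each distance from the coding start (kb), by subcluster, in females (left) and males (right); the shading is the median exon length of 2400 bp. Alpha, gamma and C-type curves rise at the exon start, and the Pcdhb curve rises inside the exon. Gamma exons are closely spaced, so neighbouring exons enter the window at either edge of their curves.

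Long coding exons elsewhere gave a comparison of the same kind. Of 678 other protein-coding genes with a coding exon of at least 2 kb, 338 (49.9%) were covered by at least 50% in females and 328 (48.4%) in males. Zinc finger genes, which include known H3K9me3 targets, had 30 of 63 such exons covered in females and 31 of 63 in males. Base composition moved with coverage. Covered long exons of other genes had a median GC content of 56.6% in females, and uncovered ones 45.2%. Protocadherin exons had a median GC content of 52.4% (range 48.2% to 56.4%), compared with 39.1% for the rest of the locus. Among the 239 other long exons within that GC range, 158 (66.1%) were covered in females and 152 (63.6%) in males. The part of GC content in the protocadherin coverage was not tested.

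Sequence similarity between members bears on whether reads can be placed. A median of 97.5% of the 75-base words of an exon, the read length used, occurred once in the assembled chromosomes. The lowest value was 80.8% for Pcdha6, and the 5 C-type exons were at 100%. The share varied along the exons. In windows of 100 bp, Pcdhgb exons averaged 45.4% in the window starting 1800 bp from the exon start and 39.7% in the next, and Pcdha exons 48.1% in the window starting at 200 bp. Of 214 distinct member bins in these exons, 142 had every word once, and the lowest bin had 38.4%. How reads with several matches were treated is not given in the sources used here, and the part of repeated words in the levels was not tested. In the Pcdhb exons, 97.7% of words occurred once in the stretches under a female peak and 98.3% in the stretches outside peaks. Repeat masking covered 2.93% of the exon bases and 46.2% of the rest of the locus.

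The level of protocadherin bins was above that of bins in general in each of the 6 tables. In control females (3 and 8 weeks together) the 80 member bins had a median level of 3.08, against 2.65 for all bins. In control males the 82 member bins had a median of 2.78, against 2.10. At 3 weeks, with MO and control libraries together, members were at 2.63 against 2.41 in females and at 2.27 against 2.03 in males. At 8 weeks the corresponding levels were 3.07 against 2.63 in females and 3.23 against 2.74 in males. Between 68.7% and 83.8% of member bins lay above the median of all bins, and between 38.1% and 54.9% lay above its 90th percentile. The tables of one sex share control libraries, so the 6 comparisons are not independent.

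Against bins of the same annotation class the differences were similar, from 0.23 in females at 3 weeks to 0.66 in control males. They were larger against the 2 backgrounds chosen after seeing the data. In peaks of 2 to 4 kb, the median of member bins exceeded that of other genes by 0.50 (log2) in females at 3 weeks and by up to 1.12 in control males. Within exons, the 54 member bins of each table exceeded the bins in long coding exons of other genes by 0.40 to 0.80. Peaks of a single bin differed. There the member median was within 0.084 of that of all such peaks in each table, and in males at 3 weeks it was lower by 0.072, although only 8 to 14 member bins per table fell in this class. Bins with the same coordinates in every table of a sex, 32 of the members in females and 21 in males, differed less from all such bins, by 0.039 (females at 3 weeks) to 0.26 (males at 8 weeks).

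**Figure D3:**
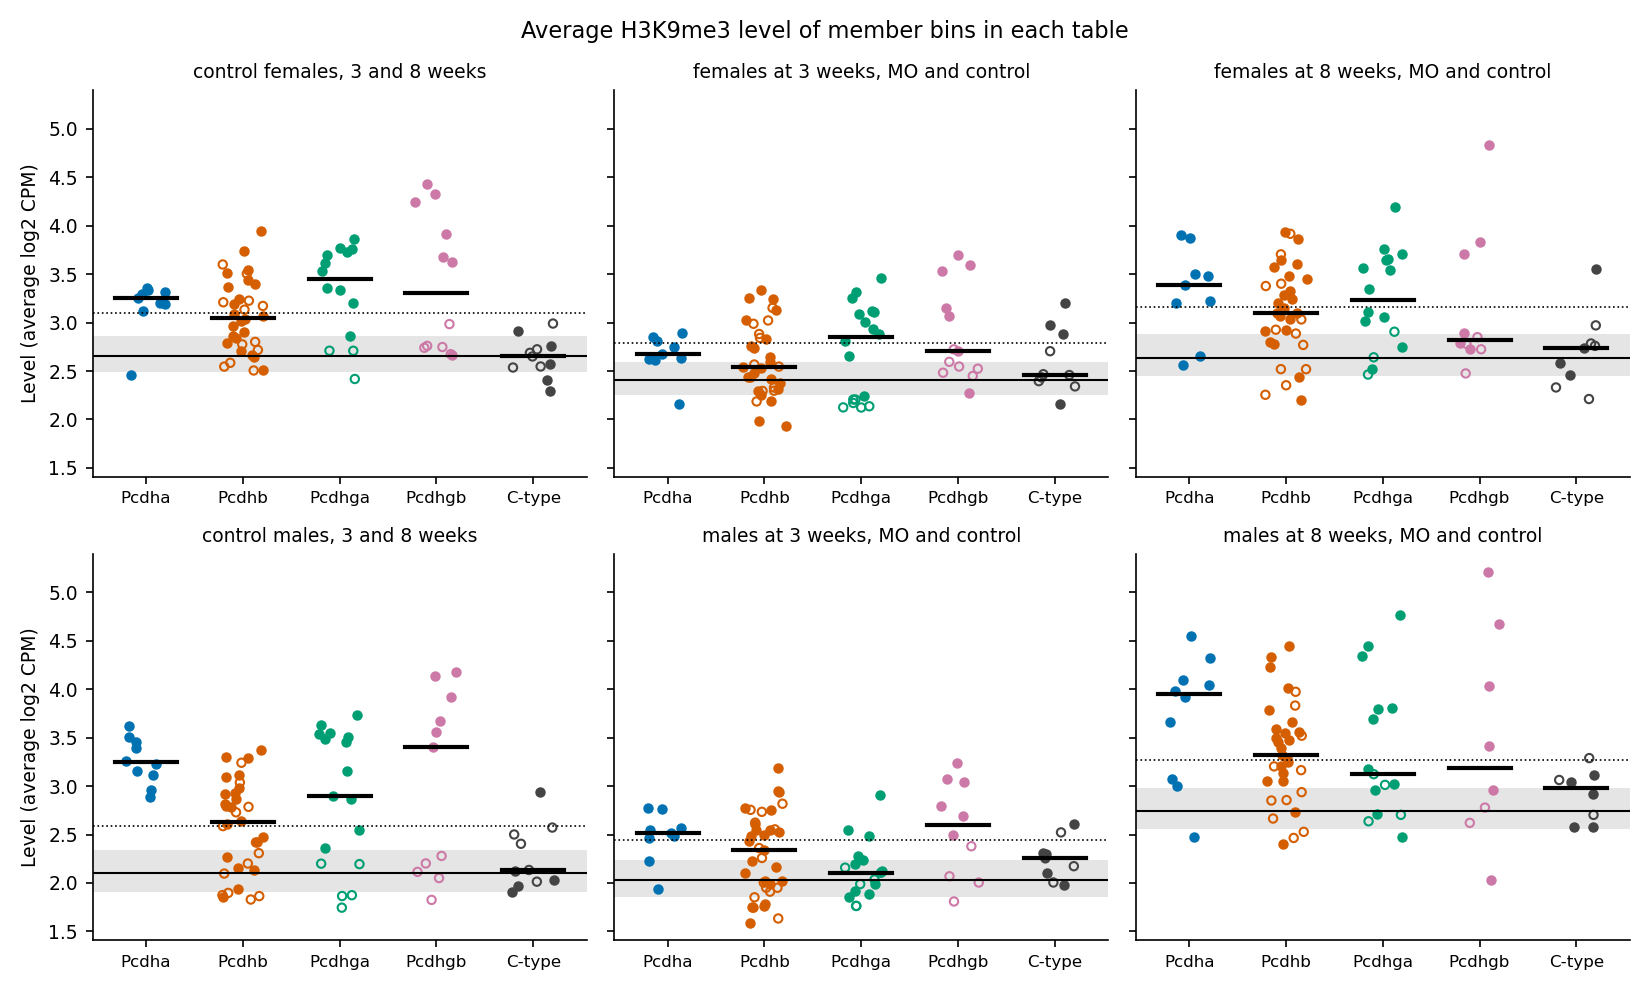
Average log2 CPM of every protocadherin bin, by subcluster, in each of the 6 tables; filled points lie in a variable or single exon, open points outside, thick bars are subcluster medians, the black line and grey band are the median and the middle of all bins (25th to 75th percentile), and the dotted line is their 90th percentile. Most filled Pcdha and Pcdhgb points lie above the grey band, while C-type points straddle the line of all bins.

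The subclusters were not alike. To compare genes, levels were scaled to a full-length bin, because shorter bins collect fewer reads. This scaling was also chosen after seeing the data. On this scale Pcdha bins exceeded the median of all bins by 0.29 in females at 3 weeks and by up to 1.01 in males at 8 weeks. Pcdhgb bins exceeded it by 0.34 to 1.05. C-type bins differed from bins in general by -0.024 in control females to 0.32 in females at 3 weeks. Pcdhb bins exceeded the general median by 0.037 to 0.61, and Pcdhga bins by up to 0.66, with a negative value of -0.098 in males at 3 weeks. Without the scaling this Pcdhga value was 0.072. Unscaled values were 0.14 for Pcdhb in females at 3 weeks and 0.19 for Pcdhgb in females at 8 weeks.

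Pcdhgb5, a gamma isoform of the B type, carried the highest bin of all members. In the table of males at 8 weeks it reached 5.21 at chr18:37732819-37733319, which begins 1665 bp into the coding part of the variable exon and in which 79.2% of 75-base words occurred once. Its exon bins had scaled levels of 4.43 in control females, 4.18 in control males, 3.70 and 3.24 in females and males at 3 weeks, and 3.53 in females at 8 weeks. Its neighbour Pcdhgb4 reached 4.83 in females at 8 weeks, but only 2.03 in males at 8 weeks, where another bin of its peak was retained. In the alpha array the highest bin belonged to Pcdha1, the first alternate alpha exon, with 4.55 in males at 8 weeks. Pcdhb19 and Pcdhga1 led their arrays in the same table, with 4.44 and 4.76. The highest C-type bin, scaled to 4.02, was a Pcdhac2 bin 34834 bp downstream of its start and outside the variable exon, also in males at 8 weeks. The lowest scaled levels within each array were 2.16 for Pcdha3 in females at 3 weeks, and 1.59 for Pcdhb22, 1.85 for Pcdhga2 and 1.81 for Pcdhgb8 in males at 3 weeks. The Pcdhgb8 bin lay outside its exon, whose bins exceeded all bins by 0.020 to 1.58 in the 4 tables that held one. These highs and lows were taken across tables that were normalised separately. The scaled median of all bins ran from 2.26 in males at 3 weeks to 2.94 in males at 8 weeks. Relative to its own table, the lowest Pcdhgb exon level was that of Pcdhgb4 (-0.91). The lowest Pcdha exon level was then that of Pcdha8 (-0.47), both in males at 8 weeks.

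Gamma C-type genes were at the low end of the order. Relative to all bins of the same table, the median over tables was -0.37 for Pcdhgc4, an isoform known for its part in neuronal survival, -0.32 for Pcdhgc5 and -0.16 for Pcdhgc3. Pcdhb7 was also low, at -0.21, and Pcdhgc4 and Pcdhgc3 were each above 0 in 2 tables. Pcdhgc5 was below the general median in each of the 4 tables in which it had an exon bin, with scaled levels of 2.57 in control females, 1.90 in control males, and 2.10 and 2.57 in males at 3 and 8 weeks. The C-type genes of the alpha array were higher. Pcdhac2, which serotonergic neurons are known to require, had a median of 0.038, with exon levels between 2.14 in control males and 3.12 in males at 8 weeks. Pcdhac1 had exon levels from 2.30 in males at 3 weeks to 3.55 in females at 8 weeks. At the high end were Pcdhgb6 with 1.41, Pcdhgb5 with 1.36, Pcdhga1 with 1.196 and Pcdhgb4 with 1.14. Of the 56 genes, 51 (91.1%) had a median above 0, beside 128 of the 356 other genes with a bin in a long coding exon (36.0%). Of the 47 members with an exon bin in all 6 tables, 13 (27.7%) were above the general median in each, beside 14 of 149 other genes (9.40%). The range over tables of a single gene reached from -0.91 to 1.99 for Pcdhgb4, so neighbours in this order could not be told apart.

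**Figure D4:**
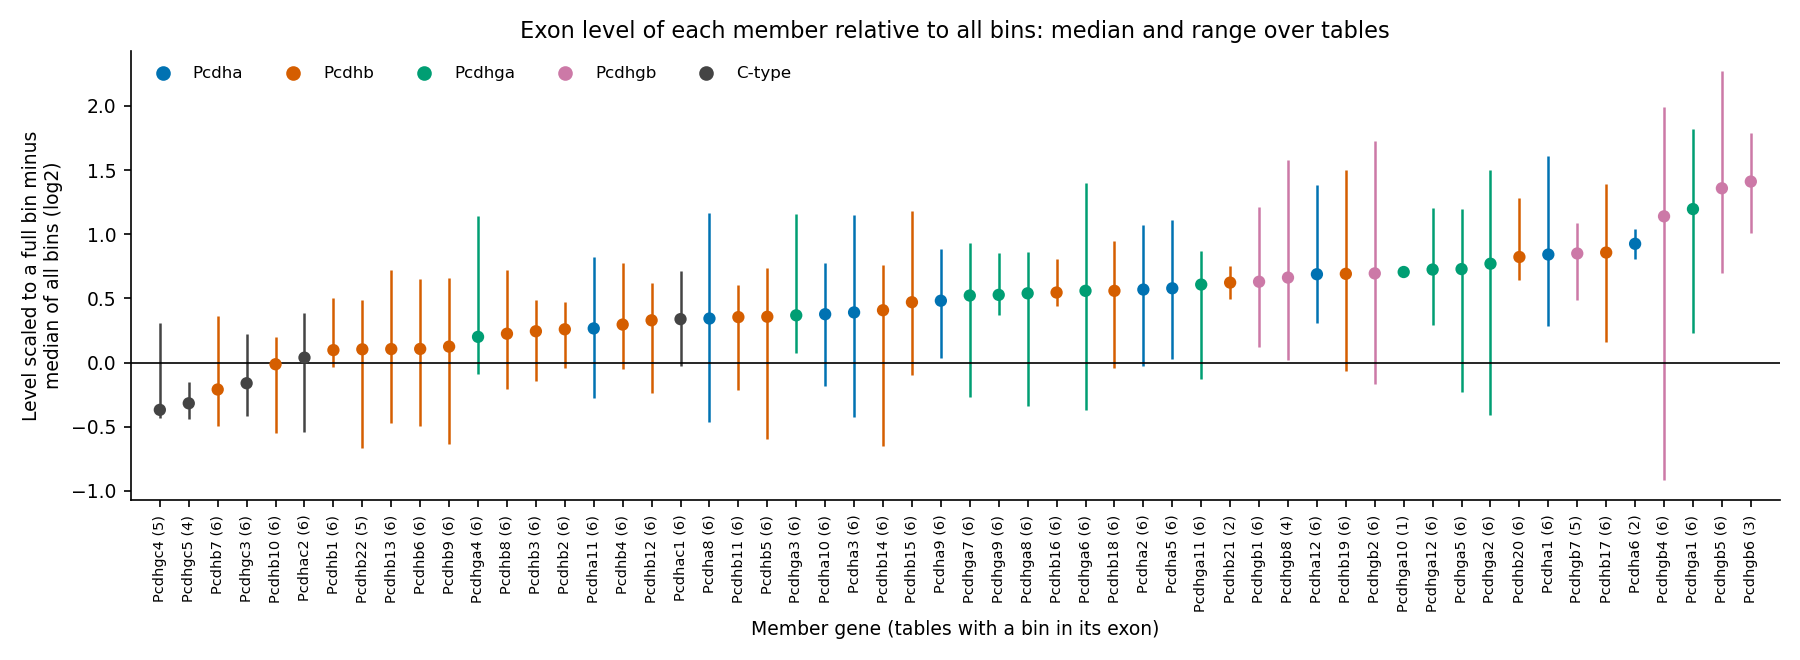
Exon level of each member, scaled to a full-length bin, minus the median of all bins of the same table (log2); points are medians and lines are ranges over the tables given in parentheses. Pcdhgc4 and Pcdhgc5 stand at the left, at -0.37 and -0.32, and Pcdhgb6 at the right, at 1.41.

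Along the exon, retained bins of the Pcdhga and C-type genes were mostly near its start, and those of the Pcdha and Pcdhb genes near its end. For Pcdhga, 37 of 67 exon rows were centred in the first 800 bp, and for the C-type genes 21 of 30. For Pcdha, 35 of 56 rows were centred beyond 1600 bp, and for Pcdhb 78 of 132. Bins centred beyond 1600 bp had median scaled levels that exceeded all bins by 0.29 in males at 3 weeks to 0.95 in control males. Those in the first 800 bp exceeded all bins by 0.10 to 0.71. Bins centred between these limits differed from all bins by -0.36 in females at 3 weeks to 0.51 in males at 8 weeks.

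Most member bins counted as promoter bins under the 3 kb definition of the tables. The share was lowest in females at 3 weeks, at 65.5% (Wilson 95% interval 54.8% to 74.8%, counting error only), and highest in males at 8 weeks, at 75.7% (64.8% to 84.0%). Over all bins this share was between 19.7% and 22.9%. A variable exon lies wholly within 3 kb of its own start site, so this class also contains the coding sequence. Within 1 kb of a start site the share was 20.0% to 28.4%, beside 12.1% to 16.2% of all bins. Between 1 and 2 kb it was 29.8% to 41.3%, beside 3.34% to 3.90%. No member bin was annotated as distal intergenic, because bins between the genes were assigned to introns of long read-through transcripts. Pcdhgb8 had the most rows (32), followed by Pcdhb22 with 30 and Pcdhb1 with 29. Many of these were distant from the exon, from 47288 bp upstream of Pcdhb1 to 25502 bp downstream of the Pcdhb22 start.

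Peaks at the clusters were mostly listed at both ages. In the study, the peaks of all conditions were merged within each sex. A listing thus shows that a merged peak has a row at that age, not that a peak was called at that age. In females 84 member peaks were listed at 3 weeks and 79 at 8 weeks, and 78 were shared, which is 92.9% of the former and 98.7% of the latter. In males 85 were listed at 3 weeks and 75 at 8 weeks, with 74 shared (87.1% and 98.7%). Over all peaks, 73.0% of those listed at 3 weeks in females and 60.7% in males were also listed at 8 weeks. In the other direction, 88.1% of all peaks listed at 8 weeks in females and 94.7% in males were also listed at 3 weeks.

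The change from 3 to 8 weeks, the period of sexual maturation, was measured on identical bins of the 2 ages, with MO and control libraries pooled. The tables were normalised separately, and all matched bins differed by a median of 0.23 in females and 0.63 in males. This shift was subtracted. In females 41 member bins of 25 genes could be matched. Their median level was 2.62 at 3 weeks and 3.07 at 8 weeks, which left a centred difference of 0.16, and 31 of 41 (75.6%) were above 0, beside the 50% of all matched bins that centring on their median sets. A bin was counted as higher or lower when the centred difference was over 1.5-fold. In females 4 of 41 bins (9.76%) were higher at 8 weeks, beside 2.75% of all 76657 matched bins. None was lower, beside 1.3% of all bins. In males 34 bins of 25 genes were matched, with median levels of 2.33 and 3.15 and a centred difference of 0.26, and 22 of 34 (64.7%) were above 0, again beside 50%. There 8 of 34 bins (23.5%) were higher, beside 3.31% of all 69096 bins, and 0 were lower, beside 1.67%.

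The level of a bin moved with this difference. Over all matched bins in the top decile of level, the centred difference had a median of 0.26 in females and 0.23 in males, and 15.4% and 14.4% of them were higher at 8 weeks. This decile held 17 of the 41 female member bins and 12 of the 34 male ones. Centred within deciles of level, the member medians were 0.088 and 0.11, and 2 bins were higher in each sex. The share of all matched bins past the limit under this centring is not given here, so the 2 bins have no background beside them.

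The 4 bins that were higher in females belonged to Pcdhgb4, Pcdhb17, Pcdhb22 and Pcdha12. The Pcdhgb4 bin at chr18:37722233-37722733, at the end of its variable exon, had a level of 3.53 at 3 weeks and 4.83 at 8 weeks, a centred difference of 1.07. The Pcdhb17 bin was at 2.74 and 3.94, a centred difference of 0.97. At the end of the Pcdhb22 exon the levels were 2.42 and 3.33 (centred 0.68), and Pcdha12, at 2.68 and 3.50, was just past the limit with 0.59. The lowest differences in females were -0.45 for a bin 26203 bp downstream of the Pcdhac1 start, -0.30 for Pcdhgb8 and -0.27 for a bin 5932 bp downstream of the Pcdhb1 start. Each of these lay outside the variable exons. In the 4 higher bins, the share of words that occurred once was 78.9% for Pcdhgb4, 90.2% for Pcdhb17 and 100% for Pcdhb22 and Pcdha12.

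In males 7 of the 8 higher bins belonged to the Pcdhb array, which supplied 19 of the 34 matched bins. The Pcdhb22 exon bin had a level of 1.59 at 3 weeks and 3.05 at 8 weeks, a centred difference of 0.82. Pcdhb17 was at 2.94 and 4.34 (centred 0.76), and a bin 36263 bp upstream of the Pcdhb1 start at 2.62 and 3.97 (0.72). The other Pcdhb bins were those of Pcdhb20 (0.65), Pcdhb19 (0.62) and Pcdhb5 (0.60), and a second Pcdhb22 bin 25502 bp downstream of its start (0.66). The remaining one was Pcdha5, with levels of 2.77 and 4.04 and a difference of 0.64. In the male exon bins the share of words that occurred once was 82.2% for Pcdhb19, 82.7% for Pcdha5, 86.2% for Pcdhb20, 90.2% for Pcdhb17, 98.4% for Pcdhb5 and 100% for Pcdhb22. The lowest differences were -0.45 for a bin 28857 bp downstream of the Pcdhac2 start, -0.37 for Pcdhgc4 at the start of its exon and -0.36 for a bin 13131 bp downstream of the Pcdhb22 start.

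Exon bins had larger median differences and also higher levels. In females the 22 matched bins in variable or single exons had a median centred difference of 0.29 and the 19 others 0.091. In males these values were 0.50 (17 bins) and 0.13 (17 bins). The median level at 8 weeks was 3.49 in exons and 2.78 outside in females, and 3.41 and 2.86 in males. Centred within deciles of level, the medians were 0.13 in exons and 0.063 outside in females, and 0.39 and 0.035 in males. The median was 0.18 in females and 0.38 in males for Pcdhb bins, and 0.091 and -0.013 for C-type bins. Pcdhb17 was past the limit in both sexes, as was Pcdhb22 in 1 of its 4 matched bins in females and 2 of 4 in males. Another of the female bins under the Pcdhb22 symbol lay in the Pcdhb21 exon. Of the 14 genes matched in both sexes, 7 had medians above 0 in both and 7 had medians of opposite sign. Many of these medians rest on 1 or 2 bins. The same count over all genes is not given here, so it is not a result about the members. The sexes used separate peak sets and separate bins, and their difference was not tested.

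**Figure D5:**
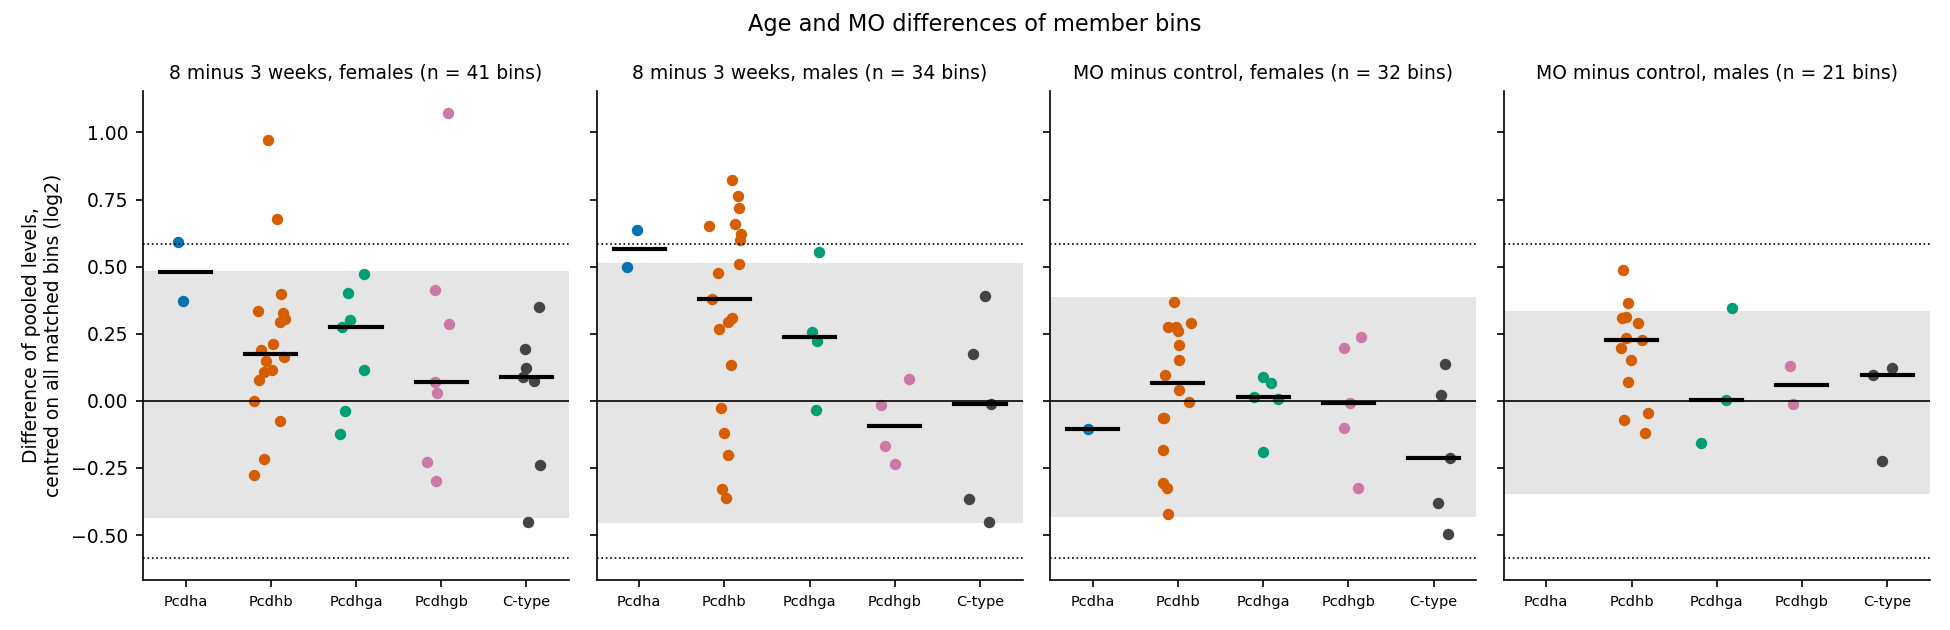
Centred differences of pooled level (log2) for each matched protocadherin bin, by subcluster, for 8 minus 3 weeks (left pair) and MO minus control over both ages (right pair); black bars are medians, the grey band spans the 5th to 95th percentile of all matched bins, and dotted lines mark 1.5-fold. The age panels have 4 and 8 points above the upper line, and the MO panels have none beyond either line.

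The effect of MO could be taken only over both ages together. The level in MO libraries was derived from the tables at each age and the table of control libraries at both ages, which share control libraries, and was compared with the latter. In females 32 member bins of 21 genes had a median centred difference of 0.0094, with 17 of 32 above 0. None was over 1.5-fold higher, beside 0.519% of all 66676 bins, and none was lower, beside 1.4%. In males 21 bins of 16 genes had a median of 0.13, with 15 of 21 above 0. Again none was higher, beside 0.155% of 60699 bins, or lower, beside 0.252%. At these background shares a list of this length would hold fewer than 1 such bin, so a count of 0 is not a result about the members.

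In females the MO differences ranged from -0.50 for the bin 26203 bp downstream of the Pcdhac1 start, where the level was 1.91 in MO and 2.65 in control libraries, to 0.37 for Pcdhb13, with 2.98 in MO and 2.86 in control. Before centring, all bins of females differed by a median of -0.24, which is why a nearly equal pair of levels gives a positive difference. In males, where all bins differed by 0.44, the range was from -0.22 for a bin 28857 bp downstream of the Pcdhac2 start to 0.49 for a bin 3803 bp upstream of the Pcdhb6 start, whose levels were 2.80 in MO and 1.86 in control libraries. The 5th and 95th percentiles of all matched bins were -0.43 and 0.39 in females and -0.35 and 0.34 in males. Of the members, 1 bin was below this range in females, that of Pcdhac1, and 3 bins were above it in males, those of Pcdhb6, Pcdhb15 (0.36) and Pcdhga5 (0.35).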

How the data were processed

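Per the labels and the methods of the study, reads of 75 bp were aligned to mm10 with BWA, broad peaks were called with MACS2 and kept when present in at least 3 replicates, longer peaks were divided into bins of 500 bp, and reads were counted with featureCounts and compared with edgeR. How reads with several matches were treated is not given in the sources used here. The authors deposited 6 annotated tables, in which the level used here is an average log2 CPM over both groups of a table. The fold change, p-value and FDR columns hold comparisons by the authors and were not used. Levels were matched by bin coordinates and centred on the median of all matched bins. MO levels were obtained by adding the linear levels of the tables at 3 and 8 weeks and subtracting that of the control table. Exons were the coding part of the longest coding exon of each gene in RefSeq GRCm38.p6, or, for the pseudogene Pcdhgb8, its longest exon. Functions were tested on simulated data with planted differences. Python 3.11.15, numpy 2.4.6, pandas 2.3.3 and scipy 1.17.1 were used. Named genes were all C-type members, the highest and lowest of each subcluster, the 3 largest age differences in each direction and sex, the largest MO differences, and members with the most rows. For age, every bin over 1.5-fold is named as well. Members and lists were chosen with earlier results of these data known. Alternatives covered the background, centring, matching, bin length and fold limit.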

Additional observations from a re-analysis of the deposited data

How the results depend on the processing

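No paired analysis was possible because the tables hold no values per library; for the same reason no replicate could be left out. The number of genes with a bin stayed within 1.5 times its value under the 3 ways of counting tried. Values below are in the order control females, control males, females at 3 and 8 weeks, males at 3 and 8 weeks. The difference of the median level from all bins was 0.0144, 0.00721, 0.0527, 0.0844, -0.0717 and 0.0463 in peaks of 1 bin, and 0.213, 0.1001, 0.0390, 0.252, 0.0471 and 0.259 over bins with the same coordinates in every table of the sex. Alternatives chosen after seeing the data gave 0.698, 1.12, 0.499, 0.707, 0.510 and 0.733 against other peaks of 2 to 4 kb, and 0.557, 0.805, 0.397, 0.600, 0.419 and 0.632 in exons against long exons of other genes. The settings for bin length were also chosen after seeing the data. With full-length bins the values were 0.564, 0.843, 0.421, 0.634 and 0.698 (males at 3 weeks moved less), and scaled to full bin length control males had 0.564. Promoter shares were 20.0%, 24.4%, 23.8%, 20.5%, 27.7% and 28.4% within 1 kb, and 98.1%, 98.1%, 98.1%, 98.1%, 100% and 98.2% with 1 bin per gene. Without centring, the age median was 0.39 in females and 0.90 in males, with 9 and 26 bins higher, and the MO median was -0.24 in females, with 3 bins lower, and 0.57 in males, with 10 higher. Centring within level deciles left an age median of 0.11 in males and 2 higher bins in each sex. At 2-fold, 1 bin was higher in females and 0 in males. The counts without centring include the median shift of all matched bins. That shift was 0.23 in females and 0.63 in males for age, and -0.24 and 0.44 for MO. Shares of all bins under these alternatives are not given here, so the counts are not results about the members. The causes of the differences between these settings were not tested.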

Other observations

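Protocadherins outside the clusters also carried H3K9me3, in another arrangement. All 12 of the non-clustered genes listed (Pcdh1, Pcdh7 to Pcdh10 and others) had bins in control females, with 252 bins in that table, of which 15 lay within 3 kb of a start site. Their median level exceeded that of all bins by 0.090 in males at 3 weeks to 0.22 in females at 8 weeks, so each of the 6 differences was smaller than that of the clustered genes in the same table. Pcdh18 and Pcdh19 had 214 and 221 rows over the 6 tables, whereas Pcdh7 and Pcdh10 had 5 and 6.

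Of 14 genes next to the clusters, which include the histone deacetylase gene Hdac3 and the formin gene Diaph1, 8 to 10 had a bin in each table, and their median differed from all bins by -0.058 to 0.066. These medians rest mostly on Pcdh1, also counted among the non-clustered protocadherins above, and Arap3, with 130 and 127 of the rows over the 6 tables, whereas Hdac3 had 5 and Diaph1 20. Genes for factors known to act on the clusters, among them Ctcf, Dnmt3b, Smchd1 and Trim28, had bins for 17 to 20 of 20 listed genes per table, with medians from -0.041 to 0.038 relative to all bins. Among 10 genes active in hepatocytes, 5 to 7 had a bin in each table and 3 or 4 a promoter bin. Apoa1, Apob, Hnf4a and Trf had promoter bins.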
